A study of Mus musculus with 2 samples.

Results

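The genes described here are 10 genes of the smooth muscle contractile apparatus, Acta2, Tagln, Myh11, Cnn1, Cnn2, Myl9, Tpm1, Tpm2, Actg2 and Des, out of 31054 features in the count tables. They were taken as a named set, with no threshold on their values, and all 10 are in the tables. They were followed in hepatic stellate cells (HSCs), with endothelial cells of the same libraries as background. The study prepared HSCs from livers of male mice given carbon tetrachloride (CCl4) for 4 weeks, and sequenced 1 single-cell library per genotype. Mice of the genotype p16-Alb-LRTD carried p16-CreERT2, Alb-DreERT2 and the reporter R26-CAG-LSL-RSR-tdTomato-2A-DTR, in which both recombinases are needed before the diphtheria toxin receptor (DTR) is made, so that it is confined by design to hepatocytes with p16 promoter activity. Mice of the genotype p16-LRTD carried the p16-driven recombinase and the reporter without Alb-DreERT2 and were the control. Both groups received CCl4, tamoxifen and diphtheria toxin, so the controls carry the reporter and the toxin too. The study's authors name leaky DTR expression as a possible limit of the model. The age of the mice and the number pooled per library are not given in the sources used here, and the mice behind 1 library cannot be told apart, so every interval below covers counting error only and no difference has a replicate check.

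HSCs are the vitamin A-storing pericytes of the liver sinusoid. After injury they can turn into myofibroblasts, which lay down collagen and take on parts of the smooth muscle machinery, with alpha smooth muscle actin (Acta2) as the classical marker. In smooth muscle, myosin heavy and light chains (Myh11, Myl9) pull on actin filaments (Acta2, Actg2) that are lined by tropomyosins (Tpm1, Tpm2) and bound by the calponin-family proteins (Tagln, Cnn1, Cnn2), and desmin (Des) forms the intermediate filaments. Many of these genes are driven by serum response factor (SRF), which binds a short element called the CArG box, and NOTCH3 is a receptor of mural cells that supports the smooth muscle programme.

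To show that element, the part of the promoter next to the start is printed for the 3 members in which it was found, 1 of them with a large and 2 with a small difference between the libraries. The sequences are from RefSeq (GRCm38.p6), run 5′ to 3′ on the strand of the gene and end at the base before the gene's RefSeq start, and capitals mark the boxes. All 3 stretches reach into the GENCODE gene models, whose starts lie upstream of the RefSeq starts. Acta2 is chr19:34255374-34255543 (minus strand), Myl9 is chr2:156775294-156775463 (plus strand) and Cnn2 is chr10:79988430-79988599 (plus strand).
Acta2: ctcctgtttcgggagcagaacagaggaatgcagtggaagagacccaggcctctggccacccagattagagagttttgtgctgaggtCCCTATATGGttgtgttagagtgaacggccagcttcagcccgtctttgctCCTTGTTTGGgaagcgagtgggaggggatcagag
Myl9: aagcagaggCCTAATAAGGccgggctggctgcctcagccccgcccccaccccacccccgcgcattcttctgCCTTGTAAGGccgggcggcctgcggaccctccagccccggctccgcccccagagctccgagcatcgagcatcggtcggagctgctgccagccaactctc
Cnn2: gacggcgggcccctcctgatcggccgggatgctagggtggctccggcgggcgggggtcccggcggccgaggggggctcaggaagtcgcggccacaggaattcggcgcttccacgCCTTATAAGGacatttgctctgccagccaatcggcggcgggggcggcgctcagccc
The box searched was CC, then 6 letters that are each A or T, then GG. It is its own reverse complement, so 1 scan covers both strands. A perfect box was in 535 of 32851 promoter windows of 300 bases (1.63%), and a box with at most 1 of the 6 middle letters off in 3280 (9.98%). Entries matched 7 of the 10 members, all but Tagln, Myh11 and Actg2. Myl9 had a perfect box at -161 and 1 with a mismatch at -99, counted from the start, and Cnn2 a perfect box at -56. Acta2 had 2 boxes with a mismatch, at -84 and -34. None was found in this window of Cnn1, Tpm1, Tpm2 or Des, which says only that these letters are not there.

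A barcode was called a stellate cell when Lrat, Ecm1, Hgf and Reln together made up at least 15 of every 10000 UMIs (unique molecules counted), and an endothelial cell when Kdr, Stab2 and Ptprb made up at least 8. There were 7912 stellate cells in p16-LRTD and 6640 in p16-Alb-LRTD, with medians of 17058.5 and 18139 UMIs, out of 9004 and 7416 barcodes that passed the study's filters. There were 435 and 288 endothelial cells. Barcodes that met both rules, 180 and 197, were left out. There were 52 and 35 barcodes within 20% of the stellate threshold. The barcodes just inside it stood at 15.19 and 15.17 and those just outside at 14.88 and 14.92, while the medians inside were 85.1 and 96.1. Markers that the rule did not use fit the label, since 8 further stellate markers summed to 29138 and 32648 UMIs per 1000000 UMIs (CPM) in stellate cells against 637 and 491 CPM in endothelial cells. The libraries shared 95 barcodes, 18 of them after filtering. Markers of other cells were low in stellate cells but higher in p16-LRTD: the 9 macrophage markers summed to 126 and 69.8 CPM, the 8 further endothelial markers to 83.6 and 56.5 CPM, the 7 hepatocyte markers to 26.8 and 18.8 CPM, and 12 fibroblast or mesothelial markers to 178 and 145 CPM, with no marker of these lists at 0 in either library. Of the 12, 4 were measured. Dpt (60.1 and 29.7 CPM, log2 -1.02) and Cd34 (11.8 and 5.08 CPM, -1.21) were at least 2-fold lower in p16-Alb-LRTD, as some members below were. Of the 10192 genes with at least 5 CPM on average, 0.981% were. Wt1 stood at 43.6 and 43.3 CPM and Eln at 54.5 and 64.6 CPM. The 5 genes of dividing cells summed to 103.2 and 25.5 CPM. Values without the cells that carried macrophage or endothelial UMIs, and without dividing cells, are given below, and the part of hepatocyte and fibroblast RNA was not tested.

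Across all stellate cells, 7 of the 8 members with a measurable level (at least 5 CPM on average) were lower in p16-Alb-LRTD, and Des was not. Acta2 and Myh11 were at least 2-fold lower, where 0.981% of the 10192 genes at that level were. No member was at least 2-fold higher, against 0.903% of genes. The median log2 ratio of the 8 members was -0.48, and that of all these genes -0.049. Cnn1 and Actg2 were below the level at which a difference could be read.

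Acta2 (chromosome 19, 34241090 to 34255590, minus strand, GRCm38), the actin isoform of vascular smooth muscle and myofibroblasts, stood at 46.0 CPM (95% interval 44.9 to 47.1) in control stellate cells. In those of p16-Alb-LRTD it stood at 12.9 CPM (12.3 to 13.6), 3.56-fold lower (3.37 to 3.76). This was the largest difference among the 8 measured members in all stellate cells. These intervals take the UMIs of 1 cell as independent. The top 1% of cells held 58.8% and 86.8% of the Acta2 UMIs, so the intervals are too narrow. The study's authors report no marked change of Acta2 by qPCR. That was done on whole-liver lysates after a shorter treatment, so sample, time and method differ. In stellate cells with no Notch3 UMI the levels were 38.1 and 10.98 CPM, 3.47-fold apart (3.25 to 3.70). In stellate cells with a Notch3 UMI they were 74.3 and 26.7 CPM, 2.78-fold apart (2.506 to 3.096). That last difference moved with how Notch3 was scored and with thinning. Its log2 value of -1.48 became -0.90 when 2 Notch3 UMIs were asked for. It became -0.46 when every cell was first thinned to 5000 UMIs. Thinning changes the Acta2 counts as well as the Notch3 classes, and the 2 were not separated. The 2-fold call in these cells therefore rests on these choices. Actg2 (chromosome 6, 83512905 to 83536265, minus strand), the actin of visceral smooth muscle, had 58 UMIs in all stellate cells of p16-LRTD and 10 in p16-Alb-LRTD, 20 of the 58 in 1 cell. The ratio of its levels, 0.40 and 0.080 CPM, was 5.05 with a counting interval of 2.56 to 11.1 that takes the UMIs of 1 cell as independent.

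The myosin genes were both lower in p16-Alb-LRTD. Myh11 (chromosome 16, 14194535 to 14291372, minus strand), the smooth muscle myosin heavy chain, stood at 150.3 CPM (148.3 to 152.3) and 73.6 CPM (72.1 to 75.2), a difference of 2.04-fold (1.99 to 2.09) whose interval spans the 2-fold line. Its log2 ratio of -1.03 was -0.98 under either TMM or median-of-ratios scaling, so the 2-fold call rests on the scaling. In Notch3-detected cells its levels were 346 and 183 CPM, and in undetected cells 95.6 and 58.1 CPM. The differences within these classes, 1.89-fold (1.81 to 1.97) and 1.64-fold (1.59 to 1.70), were smaller than that over all stellate cells, and p16-LRTD had the larger share of Notch3-detected cells. Myl9 (chromosome 2, 156775420 to 156781658, plus strand), the regulatory light chain, stood at 122.7 and 89.9 CPM, 1.37-fold apart (1.33 to 1.40). Its log2 ratios in the classes had overlapping intervals, at -0.34 (-0.40 to -0.27) in Notch3-detected and -0.35 (-0.39 to -0.31) in undetected cells.

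Of the tropomyosins, Tpm1 differed more than Tpm2. Tpm1 (chromosome 9, 67022590 to 67049406, minus strand) stood at 518 CPM (514 to 521) in the control and 276 CPM (273 to 279) in p16-Alb-LRTD stellate cells, 1.87-fold apart (1.85 to 1.90). In Notch3-detected cells the levels were 749 and 343 CPM, a difference of 2.18-fold (2.12 to 2.25), and in undetected cells 453 and 267 CPM, 1.70-fold (1.67 to 1.72). These intervals do not overlap, so the libraries lay further apart in Notch3-detected cells, beyond counting error and with no replicate to test it. Tpm1 makes several transcripts, and a count at the 3′ end does not give the muscle and non-muscle forms apart. Tpm2 (chromosome 4, 43514711 to 43523765, minus strand) stood at 109.4 and 85.0 CPM, 1.29-fold apart (1.26 to 1.32).

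The calponin-family genes differed by little beside Acta2. Tagln (chromosome 9, 45929619 to 45936058, minus strand), which encodes transgelin, an early marker of smooth muscle, stood at 617 CPM (613 to 621) and 434 CPM (430 to 438), 1.42-fold apart (1.41 to 1.44). Cnn2 (chromosome 10, 79988584 to 79996062, plus strand), a calponin made in many cell types, stood at 66.3 and 56.9 CPM, 1.17-fold apart (1.131 to 1.203). Cnn1 (chromosome 9, 22099216 to 22109630, plus strand), the calponin of differentiated smooth muscle, had 5 UMIs in 7912 stellate cells of p16-LRTD and 8 in 6640 of p16-Alb-LRTD, and a difference was not detectable at this depth. Tagln lies across from Pcsk7 and Gm48529 on the other strand, which stood at 26.9 and 1.30 CPM in p16-LRTD and at 23.99 and 0.93 CPM in p16-Alb-LRTD.

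Des (chromosome 1, 75360329 to 75368579, plus strand), the muscle intermediate filament protein and a usual marker of rodent HSCs, was the member that did not follow the others. Its level was 212 CPM (209 to 214) in the control and 218 CPM (216 to 221) in p16-Alb-LRTD stellate cells. The log2 ratio was 0.044 (0.021 to 0.068). That small excess changed sign, to -0.026, as a mean of per-cell values, and to -0.018 after thinning. In Notch3-detected cells the levels were 254 and 256 CPM and the interval of the log2 ratio, -0.040 to 0.070, contained 0. On the other strand Des overlaps Gm15179, which stood at 7.18 and 11.7 CPM.

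**Figure D1:**
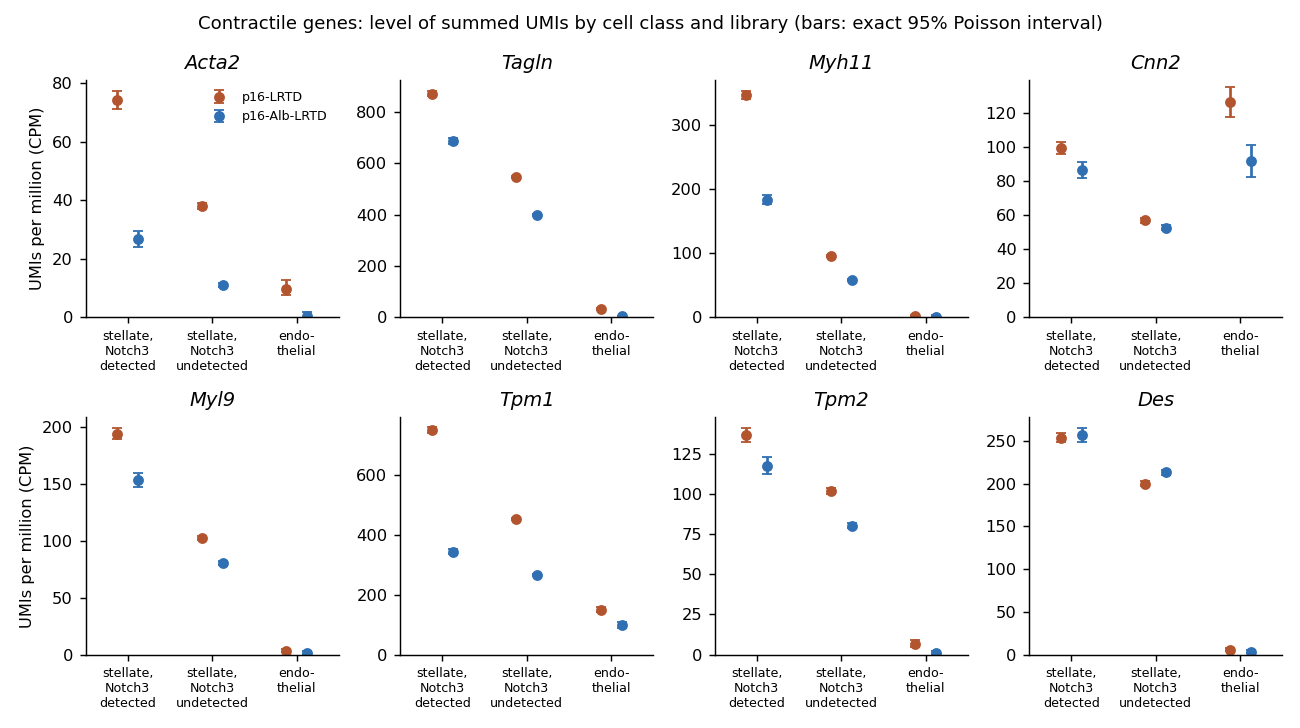
Level of each measured member in CPM (vertical axes, linear, from 0) in Notch3-detected stellate, Notch3-undetected stellate and endothelial cells, for p16-LRTD (brown) and p16-Alb-LRTD (blue), with bars for exact 95% Poisson intervals. Acta2 stands at 74.3 and 26.7 CPM in Notch3-detected cells and Des at 254 and 256 CPM, and Cnn2 is the 1 panel in which endothelial cells, at 126 and 91.6 CPM, reach the stellate levels.

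Split by Notch3, Acta2 was past 2-fold in both classes. In Notch3-detected stellate cells Acta2 and Tpm1 were at least 2-fold lower in p16-Alb-LRTD (1.03% of 10301 genes were) and no member was 2-fold higher (0.874%). In undetected cells Acta2 alone was (0.905% of 10165 genes), and no member was 2-fold higher (1.01%). The median log2 ratios of the 8 members were -0.34 and -0.40, beside -0.034 and -0.047 for all genes. Macrophage markers moved with the same comparison in Notch3-detected cells, at a summed 171 CPM in the control and 39.5 CPM in p16-Alb-LRTD cells. Without the 1934 and 1022 stellate cells that held 3 or more UMIs of the macrophage or the further endothelial markers, the log2 ratio in Notch3-detected cells was -1.25 for Acta2, -1.01 for Myh11 and -1.15 for Tpm1, and over all stellate cells -1.62, -1.02 and -0.85. Without the cells holding 2 or more genes of the dividing list, the values over all stellate cells were -1.93 for Acta2, -1.08 for Myh11 and -0.92 for Tpm1.

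**Figure D2:**
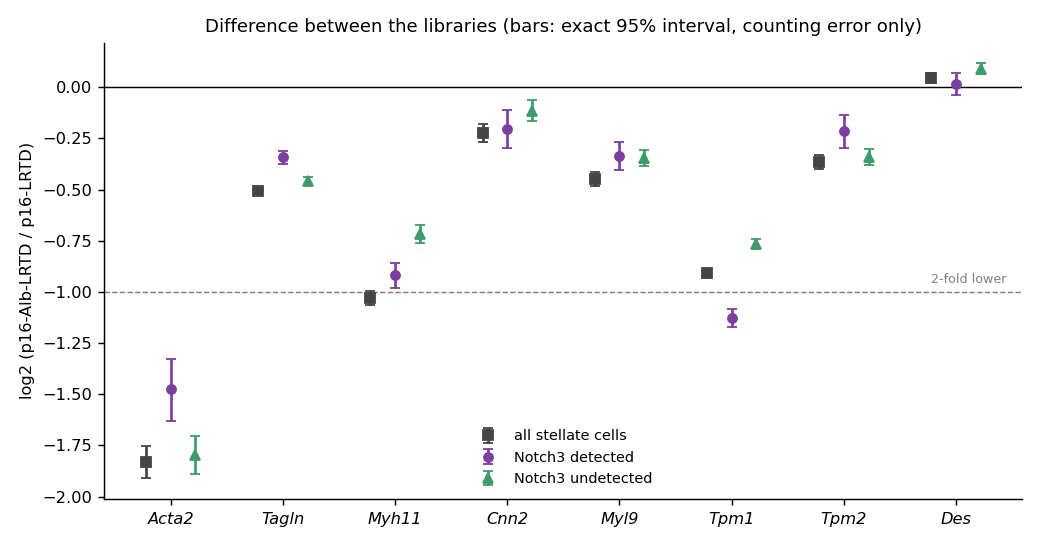
Log2 ratio of p16-Alb-LRTD over p16-LRTD (vertical axis) for the 8 measured members in all stellate cells (squares), Notch3-detected (circles) and Notch3-undetected cells (triangles), with exact 95% intervals for counting error and a dashed line at 2-fold lower. Acta2 lies lowest in all 3, Tpm1 is below the line in Notch3-detected cells alone, and Des lies at or just above 0.

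The share of stellate cells with a member UMI was compared after thinning every cell to 5000 UMIs, which left out 16 and 7 shallower stellate cells. Acta2 was seen in 5.66% of cells (5.16 to 6.19) in the control and 1.76% (1.46 to 2.11) in p16-Alb-LRTD stellate cells, and unthinned in 10.97% and 3.30%. Myh11 was seen in 39.9% (38.8 to 41.0) and 22.9% (21.9 to 24.0) of thinned cells, and Tpm1 in 80.0% (79.1 to 80.8) and 64.6% (63.4 to 65.7). These shares were lower in p16-Alb-LRTD beyond counting error. Tagln was seen in 69.5% and 57.1%, Myl9 in 38.4% and 29.4%, Tpm2 in 37.4% and 31.4% and Cnn2 in 27.9% and 22.5%. Des was seen in 61.8% (60.7 to 62.9) and 62.2% (61.0 to 63.4), with overlapping intervals.

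Endothelial cells, with medians of 11906 and 12075 UMIs, gave the background for molecules that leak between droplets. For 6 of the 8 measured members the endothelial level was at most 21.4% of the stellate one. Myh11 stood at 1.59 and 1.21 CPM there, 1.06% and 1.65% of its stellate level, Myl9 at 3.17 and 1.21 CPM, and Des at 5.71 and 3.15 CPM. Acta2 had 62 UMIs in endothelial cells of p16-LRTD, but 55 of them lay in 1 cell, and Tagln had 198, of which 154 lay in 1 cell. In p16-Alb-LRTD there were 2 Acta2 UMIs in 288 endothelial cells. The thinned share of endothelial cells with an Acta2 UMI was 0.71% (0.15 to 2.06) and 0%, where 0 of 288 cells allows a share of up to 1.04%. The stellate shares of 5.66% and 1.76% lay above both. Cnn2 and Tpm1 went another way. Cnn2 was higher in endothelial than in stellate cells, at 126 and 91.6 CPM, and Tpm1 reached 150.2 and 99.4 CPM, which is 29.0% and 35.98% of its stellate level. Both were also lower in p16-Alb-LRTD in endothelial cells, Cnn2 by a log2 ratio of -0.46 (-0.64 to -0.28) and Tpm1 by -0.60 (-0.77 to -0.43), so a lower level in that library was not limited to stellate cells. Acta2 and Tagln were lower there as well, Tagln from 31.4 to 4.12 CPM, with most of their p16-LRTD UMIs in the single cells named above.

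Within each library, all 8 measured members were higher in stellate cells with a Notch3 UMI than in those without. Notch3 was seen in 23.1% of control stellate cells (22.2 to 24.1) and in 11.7% (10.9 to 12.5) of those of p16-Alb-LRTD, or 13.2% and 5.08% after thinning. In p16-LRTD the Notch3-detected cells were the shallower, with a median of 15328 UMIs against 17517, and in p16-Alb-LRTD the deeper, with 19070 against 18026.5. Myh11 differed most in both libraries, at 95.6 and 346 CPM in undetected and detected cells of p16-LRTD, 3.62-fold, and 58.1 and 183 CPM in p16-Alb-LRTD, 3.15-fold. It was the 1 member at least 2-fold higher in p16-LRTD, where 1.04% of 10307 genes were. In p16-Alb-LRTD Acta2, at 10.98 and 26.7 CPM, was the other (0.907% of 10148 genes). The median log2 difference of the 8 members was 0.77 and 0.75, against 0.027 and 0.048 over all genes. Des differed least in both, by 1.268-fold and 1.204-fold. For Tpm1 the difference was 1.65-fold in p16-LRTD and 1.29-fold in p16-Alb-LRTD. Macrophage markers summed to 171 CPM in detected and 113 CPM in undetected cells of p16-LRTD and to 39.5 and 74.1 CPM in p16-Alb-LRTD. The 8 further endothelial markers summed to 125 and 72.0 CPM in detected and undetected cells of p16-LRTD and to 93.7 and 51.2 CPM in p16-Alb-LRTD, so they were higher in detected cells of both libraries, as the members were. The 5 dividing-cell genes summed to 98.3 and 104.5 CPM in p16-LRTD and to 61.2 and 20.5 CPM in p16-Alb-LRTD. The part of these markers in the Notch3 difference was not tested.

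Graded by the number of Notch3 UMIs, the 8 members were higher at every step in p16-LRTD, and Myh11, Tpm1, Myl9, Cnn2 and Des also in p16-Alb-LRTD. Myh11 stood at 95.6, 203, 360 and 678 CPM in p16-LRTD cells with 0, 1, 2 to 4, and 5 or more Notch3 UMIs, and at 58.1, 127, 240 and 340 CPM in p16-Alb-LRTD. Cnn2 climbed from 57.0 to 137 CPM and from 52.7 to 135 CPM, with log2 ratios between the libraries from -0.13 to -0.028. Acta2, Myh11 and Tpm1 were lower in p16-Alb-LRTD at every step, with counting intervals that excluded 0. Those intervals take the UMIs of 1 cell as independent. Few cells held most of the Acta2 UMIs, so for Acta2 the intervals are too narrow. The log2 ratios of Tpm1 were -0.76, -1.02, -1.07 and -1.03, those of Myh11 -0.72, -0.67, -0.59 and -0.996, and those of Acta2, which varied most, -1.79, -2.41, -0.56 and -1.16. Tagln and Tpm2 were not lower at every step: at 2 to 4 Notch3 UMIs the libraries stood at 882 and 905 CPM for Tagln, a log2 ratio of 0.038 (-0.014 to 0.089), and at 135 and 150 CPM for Tpm2, 0.15 (0.02 to 0.28). The highest bin held 371 and 75 cells, and the median depths of the bins ran from 14154 to 17517 UMIs in p16-LRTD and from 17920 to 19464.5 in p16-Alb-LRTD. When both libraries were given the same share of UMIs from Notch3-detected cells, 17.4% in place of 21.8% and 12.4%, the log2 ratio over all stellate cells went from -1.03 to -0.80 for Myh11, from -1.83 to -1.69 for Acta2, and from -0.91 to -0.85 for Tpm1.

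**Figure D3:**
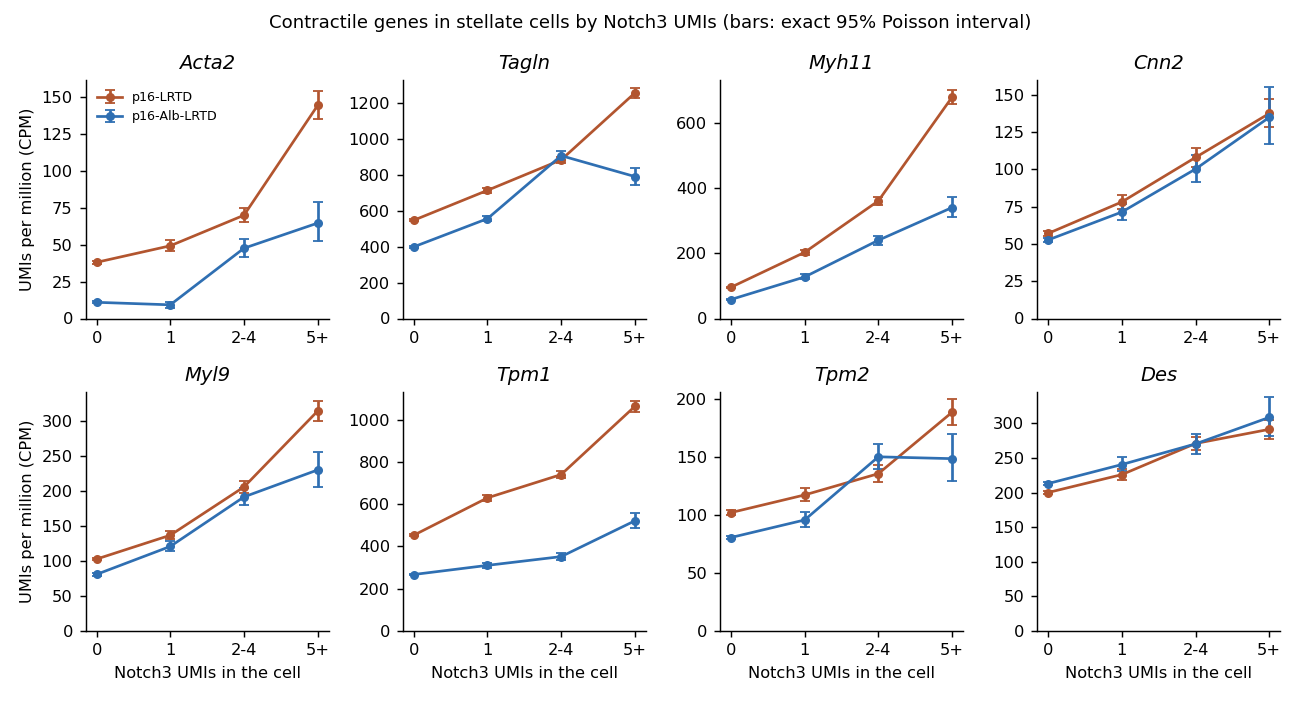
Level of each measured member in CPM (vertical axes, linear, from 0) in stellate cells with 0, 1, 2 to 4, and 5 or more Notch3 UMIs (horizontal axes), for p16-LRTD (brown) and p16-Alb-LRTD (blue), with exact 95% Poisson intervals. Myh11 climbs from 95.6 to 678 CPM in p16-LRTD and from 58.1 to 340 CPM in p16-Alb-LRTD, and the Tpm1 lines stay apart throughout.

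Among the 8 measured members Acta2 was held by the fewest cells. In p16-LRTD 56 of 7912 stellate cells held 50% of its UMIs, and in p16-Alb-LRTD 14 of 6640 did. The top 1% of cells held 58.8% and 86.8% of the Acta2 UMIs. For Tagln that share was 13.5% and 19.9%, for Myh11 11.02% and 11.08%, and for Des 4.38% and 4.56%. At a like total, Cnn2 in p16-Alb-LRTD, with 7139 UMIs, was seen in 53.8% of unthinned cells, where Acta2 in p16-LRTD, with 6630 UMIs, was seen in 10.97%.

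**Figure D4:**
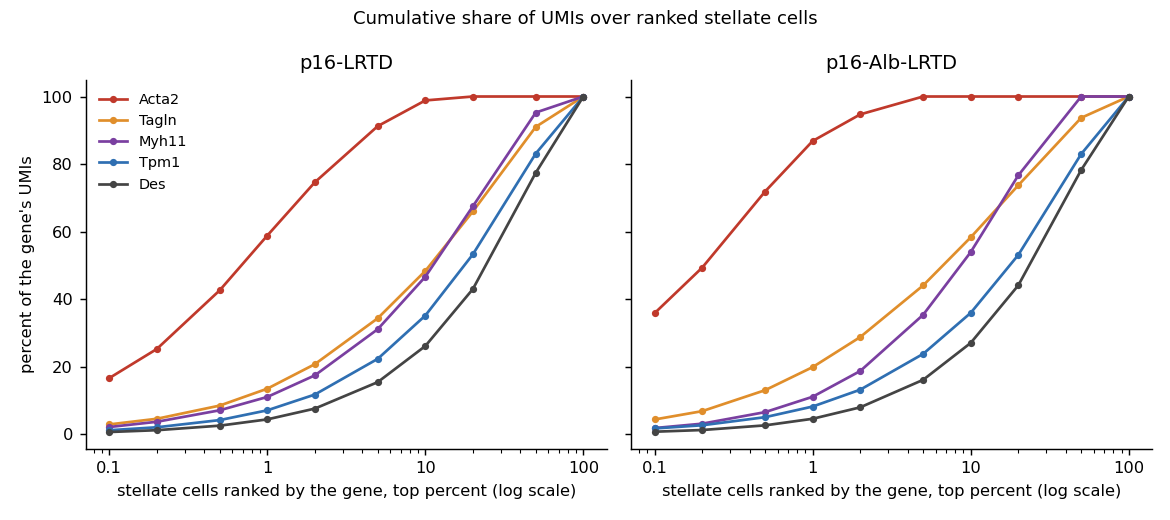
Percent of a gene's UMIs (vertical axes) held by the top percent of stellate cells ranked by that gene (horizontal axes, log scale), for p16-LRTD (left) and p16-Alb-LRTD (right). The Acta2 curve reaches 58.8% and 86.8% at the top 1% of cells, while Des stands at 4.38% and 4.56%.

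Stellate cells with 5 or more Acta2 UMIs numbered 266 (3.36% of stellate cells) in the control and 65 (0.98%) in the p16-Alb-LRTD library, and they held 85.1% and 86.6% of the Acta2 UMIs. Within them the Acta2 level was alike in the libraries, at 864 and 869 CPM, while their share of stellate cells was not. The class is cut from the count itself and its cells were deeper, with medians of 23490 and 24194 UMIs against 16680.5 and 18061 in cells with none. These cells were described by the other genes, with no test. Tagln stood at 2678 CPM in them against 470 CPM in cells without Acta2 in p16-LRTD, and at 4479 against 363 CPM in p16-Alb-LRTD. Myl9, Tpm1 and Tpm2 were 2.58-fold to 3.32-fold higher in p16-LRTD and 4.27-fold to 5.94-fold in p16-Alb-LRTD. Myh11 was 1.43-fold and 2.97-fold higher and Des 1.09-fold and 1.23-fold. Collagen genes ran with Acta2 as well. Col1a1, the chain of fibrillar collagen I, stood at 6057 against 1432 CPM in p16-LRTD and at 1900 against 465 CPM in p16-Alb-LRTD. Timp1, an inhibitor of matrix-degrading proteases, was 4.31-fold and 7.24-fold higher, and Lox, which cross-links collagen, 6.13-fold and 6.87-fold. Col1a2 was 3.15-fold and 2.05-fold higher, Col3a1 2.84-fold and 2.77-fold, and Postn, another fibrogenic gene, only 1.36-fold and 1.41-fold. Stellate markers were lower in the same cells: the 4 genes of the rule made up a median 49.8 and 42.3 of 10000 UMIs, against 88.2 and 97.5 in cells without Acta2. Notch3 was seen in 34.6% (28.9 to 40.6) and 35.4% (23.9 to 48.2) of them, and in 22.1% and 11.2% of cells without Acta2. Mural genes were mixed. Rgs5, a pericyte gene, stood at 1116 against 2455 CPM and 767 against 1955 CPM, while Mcam, an adhesion protein of mural and endothelial cells, was 1.37-fold and 2.20-fold higher. Some fibroblast or mesothelial markers were higher in these cells, and the 4 measured in both libraries are given. Cd34 stood at 33.2 against 8.62 CPM in p16-LRTD and 27.8 against 4.63 CPM in p16-Alb-LRTD. Eln stood at 99.1 against 47.9 CPM in p16-LRTD and 146 against 63.0 CPM in p16-Alb-LRTD. Dpt, a matrix protein of fibroblasts, stood at 167.7 against 43.6 CPM in p16-LRTD and 38.9 against 28.4 CPM in p16-Alb-LRTD. Wt1, a mesothelial transcription factor, stood at 92.8 against 35.6 CPM in p16-LRTD but at 33.4 against 42.5 CPM in p16-Alb-LRTD, and the part of these markers in the Acta2 result was not tested. Genes of dividing cells were higher too. Top2a, a DNA topoisomerase of cycling cells, stood at 54.98 against 23.3 CPM and at 79.7 against 2.32 CPM, and its part in the Acta2 result was read only from the value without dividing cells given above.

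**Figure D5:**
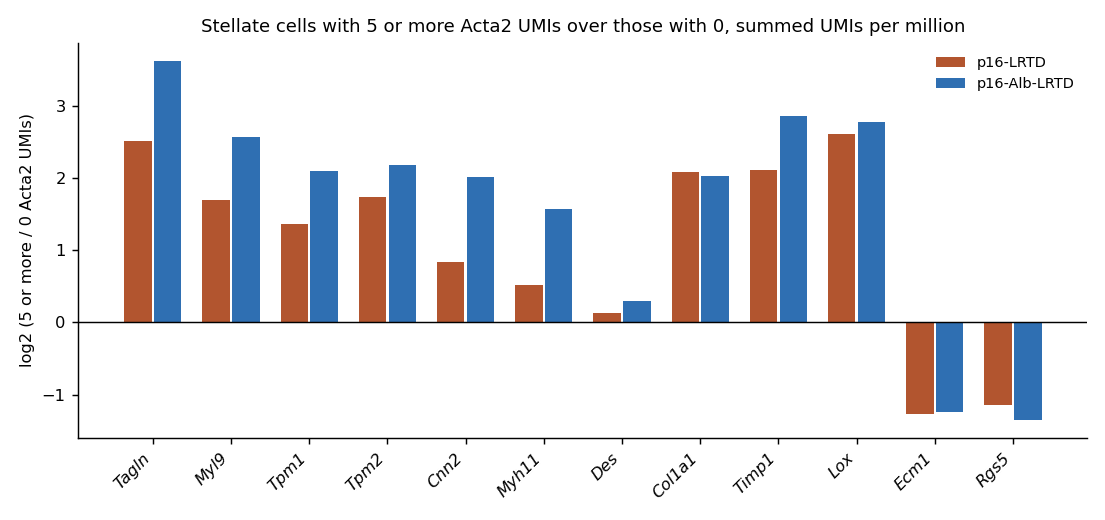
Log2 ratio of summed CPM in stellate cells with 5 or more Acta2 UMIs over those with 0 (vertical axis) for 7 members and 5 other genes, in p16-LRTD (brown) and p16-Alb-LRTD (blue). Tagln stands at 2.51 and 3.63, Col1a1 at 2.08 and 2.03, Des at 0.13 and 0.29, and Ecm1 and Rgs5 lie below 0.

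Genes that ran with the members were sought in the 2% of stellate cells with the most Acta2, Tagln and Myl9, 158 and 133 cells, against the other stellate cells of the same library. Among genes with at least 20 CPM in those cells of both libraries, the 8 with the highest smaller ratio of the 2 libraries were Ankrd1, Cdh3, Ccl7, Lmcd1, Lmod1, Tnfrsf12a, Fbxl22 and Medag. The level was asked for in the cells where these genes are high and the genes were then ranked by the ratio, so the ratios are a description of the choice. Ankrd1, a target of the YAP and TEAD regulators of mechanical signalling, stood at 41.1 CPM against 0.68 in p16-LRTD and 94.3 against 0.91 in p16-Alb-LRTD. Lmod1, which nucleates actin filaments in smooth muscle, was 6.60-fold and 12.4-fold higher. Ccl7, a chemokine that draws monocytes, was 9.08-fold and 8.08-fold higher, and Cdh3, a cell adhesion cadherin, 8.14-fold and 21.0-fold. Of the members outside the score, Tpm2 was 4.53-fold and 4.21-fold higher in these cells, Tpm1 3.03-fold and 4.02-fold, Myh11 2.18-fold and 2.94-fold, and Des 1.45-fold and 1.43-fold. Their median depths were 20625.5 and 20910 UMIs, against 16999 and 18093 in the other cells.

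Other genes of the same and of related programmes were compared in the same way. Of 14 further smooth muscle genes 11 were measured in stellate cells, with a median log2 ratio of -0.31, and 9 were below 0. Of the 11, Lmod1 alone was 2-fold lower, from 7.67 to 2.60 CPM (log2 -1.56, -1.75 to -1.38), and it was counted as measured through its level in p16-LRTD, so its call is given as a value and not as support. Ppp1r14a, the myosin phosphatase inhibitor CPI-17, went from 354 to 205 CPM (-0.79), Smtn, which encodes smoothelin, from 112.1 to 72.8 CPM (-0.62), Vcl (vinculin) from 616 to 459 CPM (-0.43) and Nexn (nexilin) from 63.3 to 50.4 CPM (-0.33). Mylk, the myosin light chain kinase, was on the other side at 614 and 683 CPM. Of 18 genes of the non-muscle cytoskeleton, all measured, 17 were below 0 with a median of -0.20 and none was past 2-fold in either direction, led by Myl6 (-0.59) and Actg1 (-0.58). In endothelial cells 16 of these 18 genes were below 0 as well, with a median of -0.50, so their lower level was not particular to stellate cells. Of 13 mural genes, which include Notch3 itself, 11 were measured and Notch3 and Heyl were 2-fold lower, Heyl, a target of Notch signalling, from 117.5 to 39.7 CPM (-1.56). Of 6 fibrogenic genes all were lower and 5 past 2-fold, with a median of -1.36 against -0.48 for the contractile members, where 0.981% of all genes were at least 2-fold lower. In endothelial cells the 4 measured fibrogenic genes, the 7 measured mural genes and the 8 measured further smooth muscle genes were all below 0 too, with medians of -3.58, -1.32 and -0.17 against -0.093 for all genes. Col1a1 stood at 210 and 5.09 CPM in endothelial cells of p16-LRTD and p16-Alb-LRTD. Postn, at 11.4 and 3.39 CPM, was counted as measured through its level in p16-LRTD. Whether few or many endothelial cells set these values was not tested.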

How the data were processed

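Hepatic stellate cell preparations from 2 genotypes were measured as 1 library each with the 10x 3′ v3.1 kit. The authors deposited the counts of unique molecules as Cell Ranger 7.0.1 gave them on the mm10 genome, with no normalization. Whether reads in introns were counted is not given in the sources used here. The total counts were 193746596 for p16-LRTD (11149 barcodes) and 162219167 for p16-Alb-LRTD (8806).

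From there, barcodes were kept, after the study's limits, with at most 5% mitochondrial counts, 2000 to 7000 genes and at most 50000 UMIs. No doublet caller was run; barcodes meeting both the stellate and the endothelial rule were left out. Counts were summed per class and library and scaled to counts per 1000000 of that sum (CPM). No test was run, since a genotype is 1 library. Intervals are 95% exact Poisson (levels), exact conditional (ratios) and Clopper-Pearson (shares), and cover counting error only. Those of levels and ratios take the UMIs of 1 cell as independent. The limit a count of 0 allows is 3 counts. Shares were also taken after thinning each cell to 5000 UMIs without replacement. A gene was measured at a mean of 5 CPM over the classes compared and called at 2-fold. Intervals and calls were tried on simulated data with independent counts. That trial could not show how the intervals fare where a few cells hold many of the UMIs. The members, the marker and gene lists and the rules were chosen with earlier results of these data known. All members are named; of other lists, up to 5 measured genes with the largest absolute log2 ratio are named. Mylk and the genes shown for Acta2-rich cells were chosen after their values were seen. One list of regulators is not reported here. Alternatives covered TMM and median-of-ratios scaling (edgeR 4.0.16, R 4.3.3), the filters, the cell rules, depth and cells left out. Python 3.11.15, NumPy 2.4.6 and SciPy 1.17.1 were used. Coordinates are from GENCODE vM21 (GRCm38) and promoters from RefSeq (GRCm38.p6).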

Additional observations from a re-analysis of the deposited data

How the results depend on the processing

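No paired analysis was possible because there was 1 library for a genotype. Over 352 library ratios of the 8 measured members under the alternatives, 224 stayed within the counting interval of the reported value, 126 moved beyond it with the same sign or from an interval that held 0, and 2 reversed. Both were Des over all stellate cells, at -0.026 as a mean of per-cell values and -0.018 with each cell thinned to 5000 UMIs. The number of members below 0 in p16-Alb-LRTD was 7 or 8 of 8 in every class and alternative run. The number past 2-fold over all stellate cells went from 2 to 1, Acta2 alone, under TMM scaling, median-of-ratios scaling, no upper limits on genes and UMIs, and equal Notch3 shares (this last and the removal of cells with macrophage or endothelial UMIs were chosen after seeing the data). In Notch3-detected cells it went from 2 to 1, Tpm1 alone, when 2 Notch3 UMIs were asked for, and with thinned cells the 2 were Myh11 and Tpm1. It was 3, with Myh11 added, as a mean of per-cell values and without cells holding macrophage or endothelial UMIs. Acta2 in those cells ranged from -2.01 to -0.46 and over all stellate cells from -2.31 to -1.62. The -2.31 leaves out the 1% of cells with the most Acta2, Tagln and Myl9, a choice that uses Acta2 itself. All 16 ratios of Notch3-detected over undetected cells were above 0 in each of the 3 alternatives run, but of these 48 values 31 moved beyond the counting interval and 17 stayed. Either scaling moved the log2 ratios by less than 0.1. Depth limits Cnn1 and Actg2, and the 65 Acta2-rich cells and 75 cells of the highest Notch3 bin in p16-Alb-LRTD.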

Other observations

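Part of the contractile gene signal lay outside the stellate and endothelial cells. Barcodes that met neither rule, 477 in p16-LRTD and 291 in p16-Alb-LRTD, held 15.3% and 10.5% of all Acta2 UMIs of the kept barcodes, while they held 0.35% and 0.19% of the Myh11 UMIs. Their Acta2 level was 116 CPM and 26.9 CPM, 4.33-fold apart (3.71 to 5.07), a difference of the same direction as in stellate cells. Only 91 and 35 of these barcodes had an Acta2 UMI, and 3 and 2 of them held 50% of the molecules. One p16-LRTD barcode had 278 Acta2 UMIs together with 27 of Actg2, 7 of Myh11 and 3 of Cnn1. That barcode alone held more than 50% of the 49 Actg2 UMIs of this group, and p16-Alb-LRTD had none there. Macrophage markers stood at a summed 13476 and 15407 CPM in these barcodes, and fibroblast or mesothelial markers stood at 995 and 609 CPM against 178 and 145 CPM in stellate cells.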
